A study of Mus musculus with 27 samples.

Results

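Of 53811 autosomal regions covered by at least 1 H3K4me1 peak in B220+ cells of VavPBcl2 mice, 5548 (10.3%) were distal regions marked only in the SHMT2 libraries. They were chosen by 3 conditions on the deposited peak lists, so their presence with SHMT2 and absence with the vector is how they were selected and not a finding. Each had a peak in both SHMT2 lists and in neither vector list (8554 regions), overlapped no peak of the 5 H3K4me3 lists (6152 regions), and lay 2 kb or more from either end of every protein-coding gene. Together they spanned 5.87 Mb of mm10, the mouse genome build of the files, and made up 21.8% of the 25475 distal regions of any pattern. These 5548 regions are called members here, and the 5709 distal regions with a peak in all 4 lists, under the same conditions on H3K4me3 and gene ends, are called shared regions.

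The cells came from a lymphoma model. Haematopoietic stem cells were taken from the fetal liver (E13.5) of VavPBcl2 mice, which express the anti-apoptotic gene Bcl2 from the blood-cell promoter VavP. They were infected with empty vector or with MSCV-SHMT2, a retroviral vector carrying SHMT2, and transplanted into wild type mice that had been irradiated repeatedly, whose remaining blood cells can contribute to the spleen. Lymphoma growth was followed, and B220+ cells, B220 being a B cell form of CD45, were taken from the spleen, so both groups share the Bcl2 transgene, the transplant and the gate. H3K4me1 was profiled in vector libraries 4 and 5 and SHMT2 libraries 4 and 5, and H3K4me3 in vector 4 and 6 and SHMT2 4, 5 and 6. RNA-seq and ERRBS, a form of bisulfite sequencing of enzyme-cut fragments that reads DNA methylation mostly at CpG-rich DNA, each had vector libraries 1 to 3 and SHMT2 libraries 1 to 3. The ERRBS labels name only B220+ cells and the vector, and 2 SHMT2 libraries carry a transfection label that differs from their title; the titles were followed. The labels do not tie libraries to animals, and every p-value here therefore speaks only of the variation among these libraries, possibly technical.

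Histone H3 carrying a single methyl group on lysine 4 (H3K4me1) marks enhancers, the distal DNA elements that transcription factors bind to control genes, often from a long way off. Active promoters instead carry 3 methyl groups there (H3K4me3), so H3K4me1 without H3K4me3 away from genes is the usual mark of an active or primed enhancer. SHMT2 is the mitochondrial enzyme that turns serine into glycine and a folate-bound 1-carbon unit, a source of carbon for the methyl donor that histone and DNA methyltransferases use. Enhancers in use tend to lose DNA methylation, which is why methylation was read alongside the mark.

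RNA of all 6 libraries carried B cell transcripts: Cd79a, a signalling chain of the B cell receptor, ranged from 522 to 655 TPM (a transcript's length-scaled share of its library's RNA) with the vector and from 737 to 774 TPM with SHMT2, and Ms4a1, the B cell antigen CD20, from 146 to 297 and from 340 to 389 TPM. Vector replicates 2 and 3 also held more erythroid RNA. The summed level of 16 measured erythroid markers was 287, 9790 and 2190 TPM in vector replicates 1 to 3 and between 253 and 636 TPM with SHMT2; 3 haemoglobin genes, Hba-a1, Hba-a2 and Hbb-b1, were listed at 0 in all 6. The sum of 19 myeloid markers was 197, 1007 and 839 TPM against 265 to 403 TPM. In bulk samples, fewer cells of a type and less RNA per cell cannot be told apart. The retroviral gene itself, Shmt2, stood at 174, 223 and 157 TPM with the vector and 244, 345 and 259 TPM with SHMT2, without overlap (exact permutation p = 0.1, the smallest that 3 against 3 allows). These TPM do not separate the retroviral from the endogenous transcript.

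No mm10 genome was used here, so the members' own sequence is shown only where a RefSeq window of 300 bases around a transcription start (250 before it and 50 after it, GRCm38.p6, the build also called mm10) fell wholly inside one. This held for 59 windows in 52 members, 16 at protein-coding genes and 43 at lncRNAs, since a start within a gene or of an lncRNA can lie far from the protein-coding gene ends that the selection used. The 6 windows below carry the results that follow: 4 with many CG and little methylation (Rap1gap, Rusc2, Wnt9b, Gm32286), 1 at a gene whose TPM was lower in every SHMT2 library (Ppfia4), and 1 in a member whose methylation was lower in every SHMT2 library (Gm1600). They are printed on the strand of the transcript, 5′ to 3′, with every CG, the dinucleotide that is methylated, in capitals.
Rap1gap (chr4:137707255-137707554, plus strand): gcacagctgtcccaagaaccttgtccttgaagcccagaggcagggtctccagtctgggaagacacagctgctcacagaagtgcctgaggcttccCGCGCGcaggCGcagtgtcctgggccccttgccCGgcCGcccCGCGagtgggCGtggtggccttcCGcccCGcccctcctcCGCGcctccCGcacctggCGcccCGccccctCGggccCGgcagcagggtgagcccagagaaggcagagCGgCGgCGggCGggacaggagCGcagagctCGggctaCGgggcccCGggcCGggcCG
Rusc2 (chr4:43381819-43382118, plus strand): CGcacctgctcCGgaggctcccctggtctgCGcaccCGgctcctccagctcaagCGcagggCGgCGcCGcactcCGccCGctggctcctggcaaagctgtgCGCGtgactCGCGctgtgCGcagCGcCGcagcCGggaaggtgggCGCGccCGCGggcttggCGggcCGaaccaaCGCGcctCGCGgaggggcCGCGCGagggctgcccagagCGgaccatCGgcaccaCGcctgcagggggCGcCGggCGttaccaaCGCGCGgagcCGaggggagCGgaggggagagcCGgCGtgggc
Wnt9b (chr11:103749772-103750071, minus strand): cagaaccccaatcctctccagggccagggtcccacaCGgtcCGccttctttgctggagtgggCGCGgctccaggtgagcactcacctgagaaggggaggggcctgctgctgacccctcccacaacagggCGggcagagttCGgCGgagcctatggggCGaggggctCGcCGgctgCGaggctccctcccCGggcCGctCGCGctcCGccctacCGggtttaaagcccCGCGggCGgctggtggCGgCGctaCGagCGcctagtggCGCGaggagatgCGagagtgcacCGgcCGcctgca
Gm32286 (chr2:153052750-153053049, minus strand): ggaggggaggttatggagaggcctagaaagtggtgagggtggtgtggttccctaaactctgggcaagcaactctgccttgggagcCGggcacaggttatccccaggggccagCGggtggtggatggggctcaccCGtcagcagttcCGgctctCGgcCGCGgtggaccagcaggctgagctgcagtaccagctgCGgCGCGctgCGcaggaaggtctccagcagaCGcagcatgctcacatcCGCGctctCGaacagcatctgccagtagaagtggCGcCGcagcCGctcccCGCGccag
Ppfia4 (chr1:134332879-134333178, minus strand): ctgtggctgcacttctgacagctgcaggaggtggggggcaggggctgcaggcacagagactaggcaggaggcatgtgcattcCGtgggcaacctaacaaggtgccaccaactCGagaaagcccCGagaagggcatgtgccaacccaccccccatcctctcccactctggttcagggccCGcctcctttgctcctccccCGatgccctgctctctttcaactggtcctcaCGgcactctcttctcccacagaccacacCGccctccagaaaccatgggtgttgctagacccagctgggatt
Gm1600 (chr16:10331236-10331535, minus strand): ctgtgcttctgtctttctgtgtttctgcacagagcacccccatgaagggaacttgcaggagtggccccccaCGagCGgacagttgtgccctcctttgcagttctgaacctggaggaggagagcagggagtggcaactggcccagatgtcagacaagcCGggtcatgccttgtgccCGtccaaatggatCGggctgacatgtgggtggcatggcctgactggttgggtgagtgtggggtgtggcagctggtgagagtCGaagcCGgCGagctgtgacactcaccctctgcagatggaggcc
Rusc2 holds 44 CG, Wnt9b 29, Rap1gap 28 and Gm32286 20, whereas Gm1600 holds 8 and Ppfia4 7. Across all 59 windows the median was 5 CG, beside 7 over all 32851 RefSeq windows, and 27.1% held 10 or more CG beside 43.5%. The core motif of the myeloid and B cell factor PU.1 (GAGGAA, either strand) occurred in 30.5% of the 59 windows and 28.3% of all windows. The E-box of the B cell factor E2A (CAGGTG, either strand) occurred in 16.9% and 20.2%. Neither motif contains the other, and a match is a description of letters in the window.

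The selection is asymmetric. The opposite pattern, a peak in both vector lists and in neither SHMT2 list, held 11 distal regions against 5548. The SHMT2 lists were also longer: 47948 and 50959 autosomal peaks over 112 and 116 Mb, against 36622 and 32742 peaks over 76.3 and 62 Mb with the vector. Each peak's fold enrichment and −log10 q (q being a false discovery rate) are the authors' values. Their medians over a list were 3.26 and 2.77 for −log10 q with the vector and 4.53 and 3.81 with SHMT2, and whether this difference in peak calling plays a part in the members was not tested beyond the counts given next. When each list was reduced to its 32742 peaks with the highest −log10 q, 866 distal regions were present only with SHMT2 and 287 only with the vector, and 612 members (11%) remained. With a −log10 q of 5 or more in all 4 lists the rule selected 2111 regions, of which only 33 overlapped a member. Leaving out a library drops its condition from the rule, so the number can only rise. Without vector replicate 4, 9102 regions met the rule, without SHMT2 replicate 4 11518 did, and without SHMT2 replicate 5 8851 did. With SHMT2 peaks of −log10 q 5 or more and the vector lists as deposited, 33 did.

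**Figure D1:**
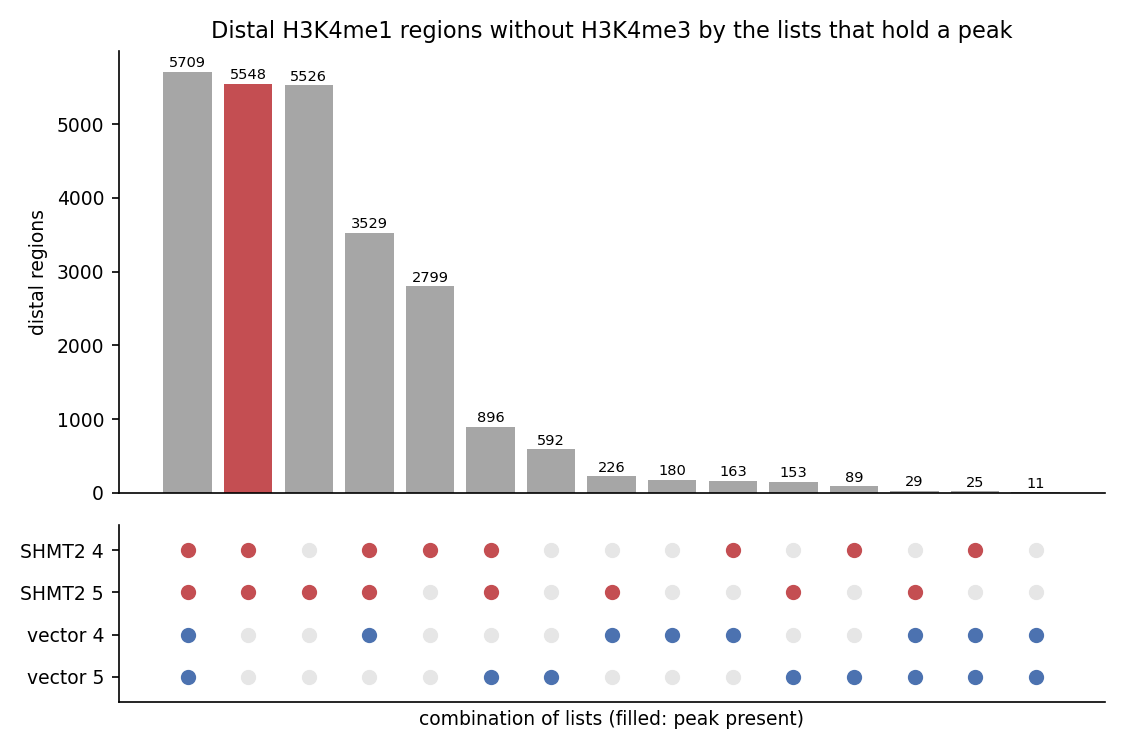
Number of distal H3K4me1 regions without H3K4me3 (bars, y axis) for each combination of the 4 lists that hold a peak (filled points below). The red bar is the 5548 members; 5709 regions had a peak in all 4 lists and 11 in both vector lists alone.

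Members were narrow and weakly enriched among their lists. Their median width was 900 bases (quartiles 639 and 1297, range 229 to 7183), against 2375 bases for shared regions. In the list of SHMT2 replicate 4 their median fold enrichment was 3.05, against 4.11 for shared regions, and in that of replicate 5 it was 2.91 against 3.77. By rank within those lists, members sat at a median percentile of 19.5 and 24.6, and shared regions at 61.3 and 64.4. Because a peak list is cut at a threshold, a region absent from a list may still carry signal there: 4425 further distal regions had a peak in both SHMT2 lists and in 1 vector list, 3529 of them with vector replicate 4 and 896 with vector replicate 5. These lay between members and shared regions, with a median width of 1412 bases and folds of 3.36 and 3.18. All these values come from the same peaks as the rule and are given as description.

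**Figure D2:**
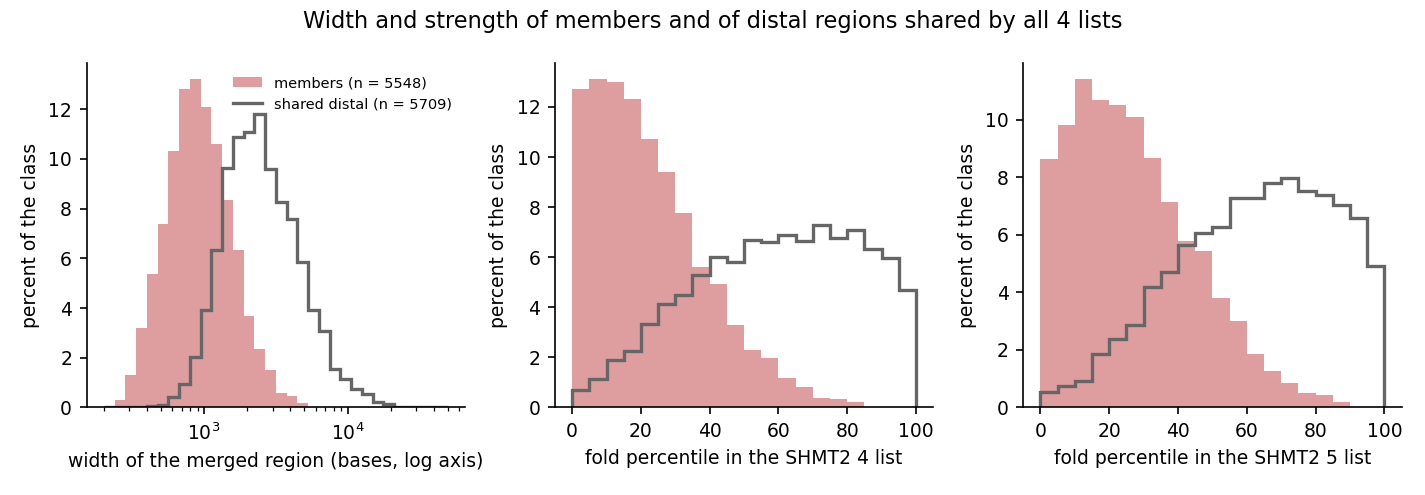
Distribution of the width of merged regions (left, bases, log axis) and of the within-list percentile of fold enrichment in SHMT2 replicate 4 (middle) and 5 (right), as percent of 5548 members (red) and 5709 shared regions (grey outline). Members sit to the left in all 3 panels, with median width 900 against 2375 bases.

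The strongest members, ranked by both SHMT2 lists, lay near genes of varied function. The top one was intergenic, 14.4 kb from the end of Cand1, a regulator of cullin ubiquitin ligases (chr10:119183229-119184376), with folds of 4.95 and 4.16 and the nearest vector peak 45.7 kb away. The second lay within Kidins220, a scaffold of neuronal and antigen receptors (chr12:25053842-25054945, folds 5.19 and 3.94). The third lay within Cr2, the complement receptor CD21 of mature B cells (chr1:195145458-195146431, 974 bases, folds 4.62 and 4.21). Cr2 stood at 255, 707 and 183 TPM with the vector and 778, 487 and 637 TPM with SHMT2. The groups overlapped through vector replicate 2 (log2 fold change 0.95, limma adjusted p = 0.384). Without vector replicate 2 the log2 fold change was 1.52, and without vector replicate 3 it was 0.55. The next 7 included those nearest to Rsph1, Lipc, Zfp541, Zeb2, Prep and Zfp423. Zeb2 encodes a repressor of epithelial genes that also acts in blood cells, and its member lay 1163 kb from the gene. In all, 33 members had −log10 q of 5 or more in both SHMT2 lists, 19 of them inside genes, with a median width of 1040 bases.

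The widest member, 7183 bases within Tmem131 (chr1:36890042-36897224), had folds of only 3.33 and 2.83 and ended 0.597 kb from a vector peak. The next 4 in width, from 5070 to 5684 bases, lay within Tspan5, Tut4, Bcar3 and Macf1. At the limit of the rule, the members nearest to D6Ertd527e and Timm8a2 lay 2.01 kb from the gene end, whereas regions nearest to Nek2, Rcn2 and Tmem64 lay 1.98 to 1.99 kb away and were left out. In the list of SHMT2 replicate 4 the folds were 3.7 and 3.13 for these members and 2.63 to 2.94 for the omitted regions, and in that of SHMT2 replicate 5 they were 2.68 for both members and 2.77 to 2.92 for the omitted regions.

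Members were spread over the autosomes and over gene bodies. Their share of all distal regions ran from 18.8% to 24.1% per chromosome. Of the 5548, 3155 (56.9%) overlapped a protein-coding gene, compared with 62% of shared regions, and 11.4% overlapped an lncRNA, compared with 12.8%. The median distance to the nearest protein-coding gene end was 23 kb, close to the 22.8 kb of shared regions, and to the nearest H3K4me3 peak 14.1 kb against 11.7 kb. The nearest vector H3K4me1 peak lay at a median of 8.05 kb: 96 members (1.73%) had one within 1 kb, 1997 (36%) within 5 kb and 4191 (75.5%) within 20 kb. Thus 3552 members remained when regions within 5 kb of a vector peak were left out.

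Members also lay in the immunoglobulin loci. The Igk locus, whose gene segments B cells recombine to make the kappa light chain (chr6:67555636-70726754, 168 segments), contained 33 members among 133 distal regions (24.8%, against 21.8% over all distal regions), and 20 shared regions. The heavy chain locus Igh held 5 members and the lambda locus Igl 4. Because the distance was measured to protein-coding genes, the 33 Igk members counted under genes at its flanks, 23 of them under Rpia. Rpia, an enzyme of the pentose phosphate pathway, stood at 14.5, 19.8 and 16.9 TPM with the vector and 16.8, 23.3 and 22.4 TPM with SHMT2 (log2 fold change 0.27, SE 0.17, limma adjusted p = 0.439). Without vector replicate 1 the log2 fold change was 0.17. V segments include near-identical copies, between which reads may be shared. Outside the 3 loci 5506 members remained.

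The 5548 members pointed to 3559 nearest genes, of which 2428 had 1 member, 688 had 2 and 443 had 3 or more. Of these genes 2063 had no shared region and 1496 had at least 1. After Rpia, the genes with most members included Foxp1 (11), a forkhead factor needed for B cell development, Lpp (10), and Kcnq5, Cacna1e, Rad51b and Elmo1 (9 each). The 11 members of Foxp1 were 411 to 3922 bases wide, 10 of them inside genes, with folds of 2.69 to 3.6 in SHMT2 replicate 4, and the gene also had 15 shared regions. Foxp1 RNA was 245, 254 and 220 TPM with the vector and 226, 228 and 241 TPM with SHMT2, with overlapping groups (log2 fold change -0.05, SE 0.08). Cog6, a subunit of a Golgi tethering complex with 8 members, all outside genes, had 7.28, 6.69 and 7.66 TPM with the vector and 8.09, 8.97 and 9.26 TPM with SHMT2. Its groups did not overlap, and the log2 fold change of 0.25 (SE 0.10) did not pass the test (limma adjusted p = 0.301). Bcl6, the master factor of germinal centre B cells, had 7 members lying 27.6 to 140 kb from the gene, and 2 shared regions. Its RNA was 498, 143 and 256 TPM with the vector and 245, 336 and 348 TPM with SHMT2, and the vector libraries spanned the SHMT2 ones, so the log2 fold change of 0.21 turned to -0.22 without vector replicate 2. For others of the genes with the most members, log2 fold changes were 0.21 for Lpp (SE 0.30), -0.29 for Cacna1e (SE 0.35), -0.12 for Elmo1 (SE 0.12) and -0.58 for Hs6st1 (7 members, SE 0.30), and none passed the test. Without vector replicate 1 that of Cacna1e was 0.06, and without vector replicate 2 that of Lpp was -0.08 and that of Hs6st1 -0.25. Without vector replicate 3 that of Elmo1 was -0.03.

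Genes of B cell identity were about as frequent beside members as beside distal regions in all. Of a list of 20 B lineage transcription factors, 13 were the nearest gene of 42 members (0.757% of members, against 0.963% of shared regions and 0.805% of all distal regions). Bcl6 had 7, Ets1 and Tcf4 6 each, Bach2 and Foxo1 4 each, Ebf1, Ikzf1, Spi1 and Pou2af1 1 each. All 13 passed the minimum of 1 TPM, and Spi1 (PU.1) alone did not overlap between groups: 23.2, 21.1 and 23.9 TPM with the vector and 24.1, 28.4 and 32.2 TPM with SHMT2. The median log2 fold change of the 13 was 0.11. The interferon regulatory factor Irf8, with 2 members, stood at 1340, 930 and 870 TPM and 1264, 1369 and 1491 TPM, overlapping through vector replicate 1 (log2 fold change 0.42, limma adjusted p = 0.317, and 0.0391 without that library). Without that library the fit called 7.6% of all genes tested (845 of 11117). Of 23 mature B cell genes 3 had a member, Cr2, Cxcr5 and Fcer2a, 1 each (0.0541% of members, against 0.14% of shared regions and 0.0707% of all distal regions). Fcer2a, the low-affinity IgE receptor CD23, had 79.7, 71.5 and 33.1 TPM with the vector and 114, 95.6 and 92.3 TPM with SHMT2, without overlap. Of 12 subunits shared by the H3K4 methyltransferase complexes only Ncoa6 and Wdr5 had a member, 1 each (0.036% of members, 0.0175% of shared regions and 0.0196% of all distal regions). Of 8 H3K4 methyltransferases only Smyd3 did, with 2 members (0.036%, 0.0876% and 0.118%). None of 6 H3K4 demethylases had a member, and 0.0275% of all distal regions lay nearest to one.

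Of 28 lymphoma tumour suppressors 14 were the nearest gene of 34 members (0.613%, against 0.946% of shared regions and 0.703% of all distal regions). Among them Btg1, an anti-proliferative factor, had 6 and Tnfaip3 5. Of the 13 tested, 4 had all SHMT2 libraries below all vector libraries (Tnfaip3, Sesn1, Prdm1 and Crebbp) and 0 the reverse, beside 8.26% and 16.9% of all genes tested. The median log2 fold change of the 13 was -0.38, beside 0.023 over all genes tested, and the list was drawn up with earlier results of these libraries known. Tnfaip3, the A20 brake on NF-κB, stood at 592, 755 and 997 TPM with the vector and 413, 288 and 373 TPM with SHMT2 (log2 fold change -1.11, SE 0.23, exact permutation p = 0.1, limma p = 0.00255, adjusted p = 0.204, and 0.0329 without vector replicate 1). Its 5 members lay 9.39 to 109 kb from the gene beside 4 shared regions. Crebbp, a histone acetyltransferase of enhancers, had 158, 134 and 137 TPM against 111, 116 and 103 TPM, with 1 member inside the gene. Prdm1, the plasma cell factor Blimp-1, had 86.9, 85.5 and 100 TPM against 46.2, 75.4 and 62.6 TPM. Of 25 genes of serine and one-carbon metabolism 6 had a member, 10 members in all (0.18%, against 0.0876% of shared regions and 0.114% of all distal regions). Psat1, which makes phosphoserine, had 3 members and 0 shared regions, and RNA of 12, 7.23 and 6.97 TPM with the vector and 15.5, 16.1 and 14.2 TPM with SHMT2 (log2 fold change 0.78, limma adjusted p = 0.205, and 0.0214 without vector replicate 1). The fit without that library, also given for Tnfaip3, called 7.6% of all genes tested (845 of 11117). Mthfd1l, a mitochondrial formate-producing enzyme, also had 3 members, and 21.9, 19.6 and 16.8 TPM against 24.3, 21.9 and 22.2 TPM.

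RNA was not used by the rule, so the nearest genes could be tested. Of the 3433 matched in the RNA table, 2489 (72.5%) had a mean of at least 1 TPM, against 47.5% of all 23382 symbols, protein-coding or not. The share was 81.5% for genes nearest to shared regions and 49.1% for protein-coding genes nearest to no member. limma on log2(TPM + 1) was fitted over all 11117 genes with such a mean. It called 0 of the 2489 at an adjusted p under 0.05, beside a background of 0% (0 of 11117). Of the 2489, 354 had an unadjusted p under 0.05. These were 177 higher with SHMT2 (7.11%, against 11.3% of all genes tested) and 177 lower (7.11%, against 5.4%). Groups did not overlap for 287 higher genes (11.5%, against 16.9%) and 262 lower genes (10.5%, against 8.26%). These shares were not particular to members. Of genes nearest to shared regions, 6.99% were higher and 7.74% lower at an unadjusted p under 0.05 (limma). Groups did not overlap for 10.7% and 11.4% of them. The median log2 fold change of members' genes was -0.019, with 1176 above 0 and 1313 below, and the median of all genes tested was 0.023. For genes nearest to shared regions the median was -0.036 and for protein-coding genes nearest to no member 0.039. Members and shared regions have 1455 nearest genes in common (42.4% and 47.1% of each set), and without vector replicate 3 the median of members' genes was 0.003. Among genes with 3 or more members it was -0.036 (379 genes) and among members' genes without a shared region 0.016 (1252 genes).

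One library decided the number of calls. Without vector replicate 1, limma called 174 nearest genes (62 higher and 112 lower), 6.99% of those tested, beside a background of 7.6% (845 of 11117). The comparison then rests on vector replicates 2 and 3, the 2 libraries with the high erythroid and myeloid sums, against 3 SHMT2 libraries, and the part of those transcripts in the calls was not tested. Without both vector replicates 2 and 3, an alternative chosen after the data were seen, 1 nearest gene was called (0.0402%, beside a background of 0.054%, 6 of 11117) and the median was 0.014, the lone vector library being assumed to vary like the others.

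Among nearest genes whose groups did not overlap, the 10 largest higher and 10 largest lower log2 fold changes were taken, and none passed the test (limma adjusted p 0.204 to 0.321). Gstt1, a glutathione transferase with 1 member, had 11.3, 3.8 and 5.19 TPM with the vector and 15, 22 and 19.1 TPM with SHMT2 (log2 fold change 1.45, SE 0.36, limma adjusted p = 0.204). Anxa2, a calcium-dependent membrane protein, had 75, 37 and 56 TPM against 94.2, 111 and 101 TPM (0.91, SE 0.25). The other 8 with higher values, Irak1bp1, Smoc1, Uchl4, Acot7, Efcab3, Fam72a, Uchl3 and Fcer2a, had log2 fold changes from 0.79 to 1.38. Without vector replicate 2 that of Irak1bp1 was 0.67 and that of Efcab3 0.53, and without vector replicate 3 that of Fcer2a was 0.40. Uchl4 and Uchl3 are close paralogs and may share reads. On the other side, Plb1, a phospholipase, had 14.5, 6.31 and 11.7 TPM with the vector and 0.803, 2.24 and 3.25 TPM with SHMT2 (-1.95, SE 0.41, limma adjusted p = 0.204). Zfp36l2, an mRNA-destabilising RNA-binding protein with 2 members, had 303, 929 and 1301 TPM against 223, 210 and 263 TPM. Sesn1, a sestrin that restrains mTORC1 signalling under stress, had 110, 282 and 314 TPM against 86.5, 66.6 and 74.7 TPM. Tcf7l2, a Wnt pathway factor with 5 members and 0 shared regions, had 0.825, 5.3 and 7.15 TPM against 0.759, 0.76 and 0.614 TPM.

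Ppfia4, a liprin scaffold protein, had its only distal H3K4me1 region in the set: the member within the gene that holds the 7-CG window printed above (chr1:134332148-134333231, 1084 bases, folds 3.25 and 2.59). Its RNA was 19.6, 9.48 and 8.47 TPM with the vector and 4.15, 2.26 and 3.99 TPM with SHMT2 (log2 fold change -1.54, SE 0.35, exact permutation p = 0.1, limma p = 0.0041, adjusted p = 0.204). Itgam, the myeloid integrin CD11b with 3 members, had 12.6, 14.4 and 12.3 TPM against 8.06, 3.44 and 4.83 TPM. The remaining lower genes, Abcb4, Dennd2c, Prokr1 and Mlxip, ran from -2.21 to -1.14. Without vector replicate 2 the values were -1.17 for Abcb4, -0.95 for Dennd2c and -0.75 for Prokr1. Vector replicate 1, which had the lowest erythroid sum of the vector group, had the lowest vector value of Abcb4, Dennd2c, Zfp36l2, Sesn1, Prokr1, Tcf7l2 and Mlxip, but the highest of Ppfia4 and Plb1. Without that library the adjusted p was 0.0468 for Ppfia4, 0.0162 for Zfp36l2, Sesn1 and Mlxip, 0.0167 for Tcf7l2, 0.0227 for Gstt1, 0.0214 for Uchl4, 0.0309 for Fam72a, 0.0275 for Uchl3 and 0.0369 for Anxa2 (limma). Only values under 0.05 are listed, and this fit called 7.6% of all genes tested (845 of 11117). Among markers of other cell types with a member, Slc4a1, the erythrocyte anion exchanger, had 19.9, 1573 and 292 TPM with the vector and 42.3, 20.5 and 49.4 TPM with SHMT2. Cd163 and Mrc1, macrophage receptors, had 0.119, 2.76 and 3.85 TPM and 1.22, 20.7 and 21.6 TPM with the vector, against at most 0.244 and 3 TPM with SHMT2. In all 3 the vector libraries spanned the SHMT2 values, and without vector replicates 2 and 3 the log2 fold changes were 0.79 for Slc4a1, 0.10 for Cd163 and 0.63 for Mrc1. Without vector replicate 1 they were -4.24, -1.84 and -2.69, with limma adjusted p of 0.0407, 0.021 and 0.0162.

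**Figure D3:**
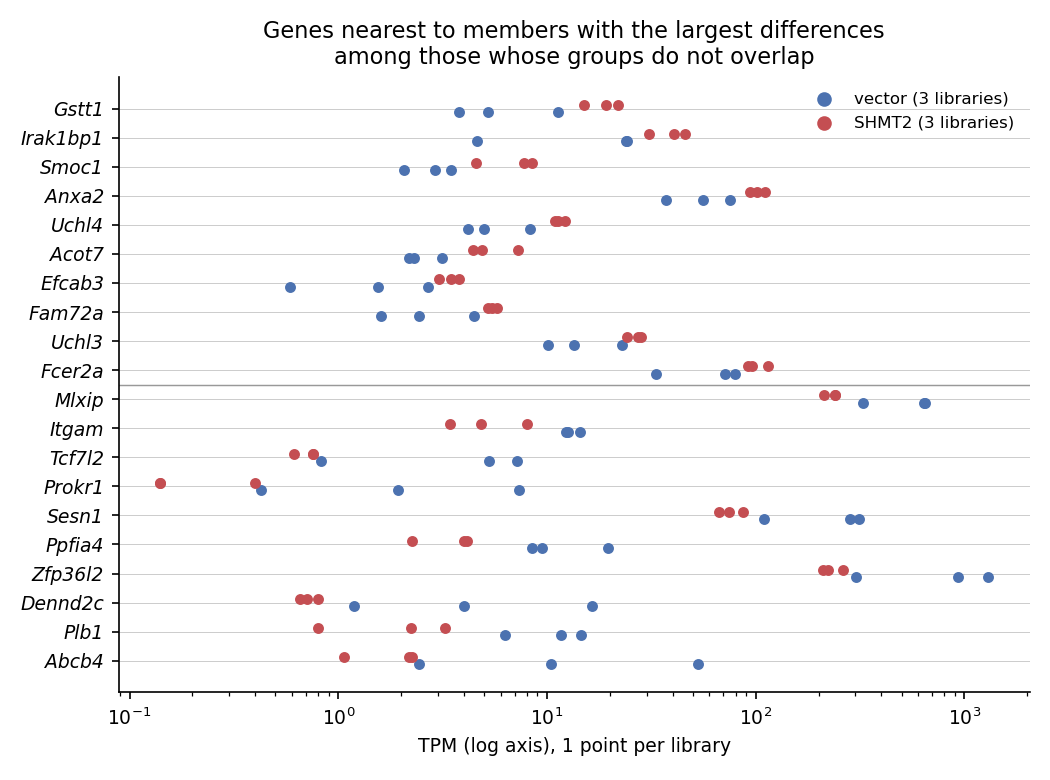
TPM (x axis, log scale) in each library for the 20 genes nearest to members with the largest log2 fold changes among those whose groups did not overlap, 10 higher (top) and 10 lower (bottom). Blue points are 3 vector libraries and red points 3 SHMT2 libraries. The vector values of some lower genes are spread widely, as for Sesn1 at 110 to 314 TPM, whereas those of Itgam lie at 12.3 to 14.4 TPM.

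DNA methylation was likewise not used by the rule. ERRBS covered only part of the members: 3885 CpG cytosines, on either strand, with at least 10 calls in all 6 libraries, and 360 of the 5548 members held 3 or more of them. Averaged over these 360 members, methylation was 41.1%, 41.3% and 39.9% in vector libraries 1 to 3 and 42.9%, 41.5% and 41.5% in SHMT2 libraries 1 to 3. The groups did not overlap but differed by 1.15 percentage points (40.8% ± 0.777 against 42% ± 0.816, SD, n = 3). Shared regions differed by 1.22 points (58.7% ± 0.422 against 59.9% ± 1.6) and all 13917 covered regions by 0.514 points (19.3% against 19.8%). Of the 360 members, 216 (60%) had a higher mean with SHMT2, the same share as the 351 of 585 shared regions and beside 55.1% of all covered regions. Without SHMT2 replicate 1 the members' difference was 0.684 points. For the 33 members covered among those kept in lists of equal length it was 0.0366 points, with 15 higher (45.5%).

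Per region, no difference passed. A quasi-binomial regression with dispersions moderated by limma, fitted on 6849 regions with a mean level of 5 to 95%, called 0 of 317 members at an adjusted p under 0.05 and 10 points, beside a background of 0%. At an unadjusted p under 0.05 there were 11 members (3.47%, against 3.91% of all regions), 9 higher and 2 lower with SHMT2. Groups did not overlap for 17 higher members (5.36%, against 6.31%) and 7 lower (2.21%, against 2.6%). Fisher's exact test on calls pooled over libraries, which ignores the spread between them, called 35 of the 317 members (11%), 22 higher and 13 lower, beside a background of 10.4% (710 of 6849 regions).

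The largest of these differences are given with their libraries or with the means of the groups. The member within Fbxw7, the ubiquitin ligase subunit that degrades Myc (chr3:84883394-84884384, 3 cytosines, at least 142 calls per library), had 49%, 50.5% and 47.6% with the vector and 70.6%, 73.9% and 61.6% with SHMT2 (exact permutation p = 0.1, regression p = 0.0205, adjusted p = 0.846). The member beside Fam71f2 (chr6:29297937-29298832) had 71%, 69.6% and 52.9% against 82.3%, 86% and 83.2%. The member within Lif, the leukaemia inhibitory factor gene (chr11:4260517-4262354, 6 cytosines), had 37%, 46.7% and 50% against 60%, 55.6% and 57.1%. The members beside Mettl21e and Rnaset2a went from 12.4% to 23.7% and from 14.3% to 23.9%, with 39.3% in SHMT2 replicate 2 for the latter, which differed by 1.98 points without that library. In the other direction, the member beside H2bl1 had 56.6% ± 12.8 against 36.8% ± 5.92 and that beside Satb1, a chromatin organiser, 31.5% ± 4.26 against 21.2% ± 9.16 (SD, n = 3). The Satb1 value rests on SHMT2 replicate 2, since the SHMT2 libraries had 26.4%, 10.6% and 26.6%, and without it the difference was -5 points. Without vector replicate 2 that of H2bl1 was -12.8 points.

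The member 16.7 kb from Emp2 (chr16:10330666-10331546, folds 3.05 and 2.69) holds the Gm1600 window printed above, and all 3 of its covered cytosines lie in that window. Their methylation was 15.8%, 14.2% and 18.1% with the vector and 10.3%, 3.75% and 10.8% with SHMT2, at no fewer than 406 calls per library (exact permutation p = 0.1, regression p = 0.0353, adjusted p = 0.846). The members beside Arid4a and Cyria had 33.6% against 27.2% and 10.2% against 4.86%, the latter differing by -3.36 points without vector replicate 3. In all 10 named members the groups did not overlap, which is how they were picked. Their exact permutation p was thereby fixed at 0.1.

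**Figure D4:**
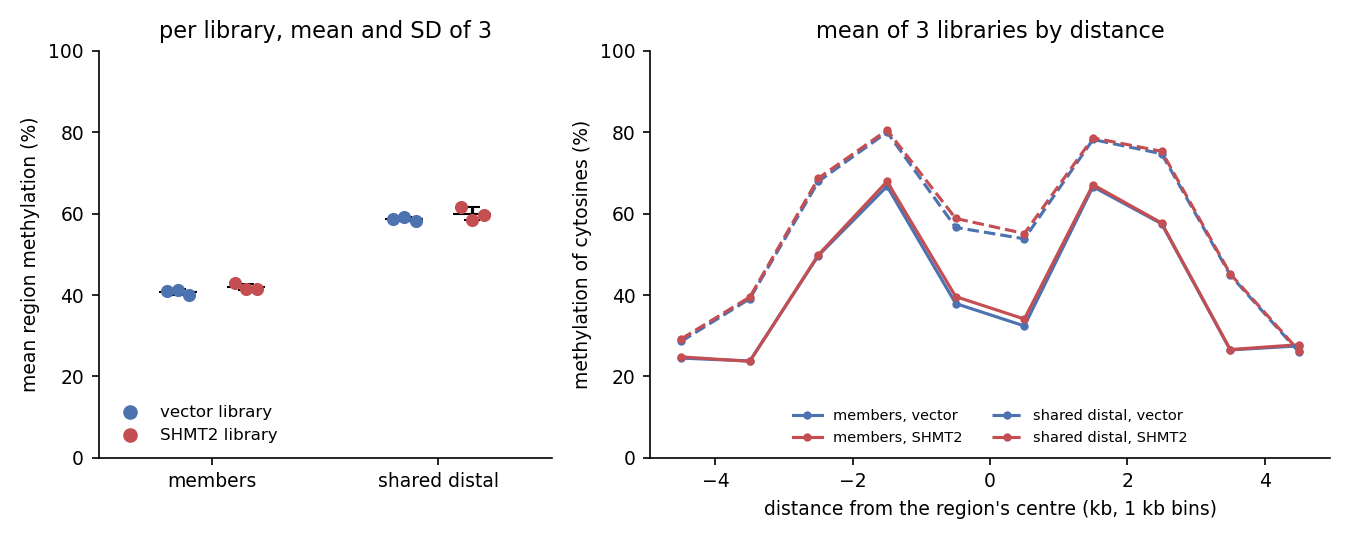
Left, mean methylation (%) over 360 members and 585 shared regions in each library (points) with mean and SD of 3 libraries (bars). Right, methylation of CpG cytosines (%) in 1 kb bins by distance from the region's centre, mean of 3 libraries; members (solid; shared regions dashed) have a dip at the centre in both groups, to 32.4% in the vector bin from 0 to 1 kb.

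Pooled over cytosines, methylation near the centres of members was lower than in their flanks in both groups, the vector lists holding no H3K4me1 peak there. Cytosines from 0 to 1 kb after a member's centre had a mean level of 32.4% with the vector and 34.1% with SHMT2, those from 1 to 2 kb after it 66.6% and 67.1%. Around shared regions the corresponding values were 53.8% and 55.1%, and 78.2% and 78.6%. Farther out, from 3 to 5 kb, levels near both classes were lower again, at 23.8% to 27.5% around members with the vector. Regions with many cytosines weigh most in such a pool: 91 of the 360 members held 2300 of their 3571 cytosines. Averaged per member with the vector, levels were 55.3% for members with 1 or 2 covered cytosines, 52.8% with 3 or 4, 43.2% with 5 to 9 and 17.5% with 10 or more. Of the 360 members 39.2% had a level under 20%, 39.7% between 20% and 80%, and 21.1% over 80%, whereas 15.2%, 48% and 36.8% of shared regions did.

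Members with many covered cytosines had low levels. In the 91 members with 10 or more covered cytosines, a number set after the values were seen, methylation was 17.5% ± 1.04 with the vector and 20.1% ± 3.25 with SHMT2 (SD, n = 3), with overlapping libraries (18.7%, 16.9% and 16.8%, and 19.6%, 23.6% and 17.2%). Of these 91 members, 70 (76.9%) had a level under 20%, about as many as the 71 from the other 269. In the 269 members with 3 to 9 cytosines the libraries had 47.5% to 50.8%, and 26.4% were under 20%. The 63 shared regions with 10 or more cytosines had 57% to 59.4% with the vector and 59.6% to 62.8% with SHMT2, and 8 (12.7%) were under 20%. Over all 244 distal regions with 10 or more cytosines, members included, the libraries had 31.7% to 36.8%, and 124 (50.8%) were under 20%. The nearest gene was under 1 TPM for 52 of the 89 such members with a measured gene (58.4%), for 32.7% of members with 3 to 9 cytosines, for 11.1% of such shared regions and for 107 of 241 such distal regions in all (44.4%).

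The member with the most covered cytosines, 109, lay within Srcin1, an inhibitor of Src kinase signalling (chr11:97545463-97547513), with 0.742% to 1.09% methylation with the vector and 0.516% to 1.24% with SHMT2. The next were those within Zfp316 (89 cytosines), Adgrb1 (84) and Rusc2 (52) and beside Polg (52), where the member holds the start of the lncRNA Mir9-3hg. The member beside Pax2, a factor of kidney and eye development (51 cytosines, chr19:44741105-44741964), had 12.6% ± 1.84 against 13.1% ± 5.18, and that beside the neural factor gene Zic5 (50 cytosines) 4.73% ± 0.977 against 6.07% ± 1.36 (SD, n = 3). Others with 20 or more cytosines lay beside or within Ptf1a, Pitx1, Six2, Foxf2, Foxd3, Barhl2, Onecut1 and Sox21, each a transcription factor gene of embryonic tissues, with levels of 5.84% to 19.9% over 6 libraries; these names were picked after their values were seen and are no tested group. Zfp316 was higher, at 16.2%, 28.6% and 46.9% with the vector and 34.1%, 61.8% and 35.8% with SHMT2. Members nearest to Crb2 (33 cytosines), Sertad4 (42) and Syf2 (22) were also above 20% over 6 libraries, at 24.6%, 21.2% and 20.7%. The 4 members with 10 or more cytosines and a level over 80% lay within Nfatc1, Aff3, Tpst2 and Cep164. Their levels were 91.5%, 89.8%, 89.3% and 86.6%, and only Nfatc1 and Aff3 are genes of lymphocyte factors.

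The 4 CG-rich windows printed above had low levels too. In the Rusc2 window 45 cytosines of both strands were covered and had 2.62% ± 0.936 with the vector and 3.25% ± 1 with SHMT2 (SD, n = 3). In the Rap1gap window 29 cytosines had 0.252% ± 0.161 against 0.317% ± 0.172, in the Wnt9b window 18 had 1.87% ± 0.655 against 3.02% ± 2.49, and in the Gm32286 window 6 had 0.853% ± 0.987 against 0.988% ± 0.746. In all 4 windows the libraries of the 2 groups overlapped. The members that hold them had folds of 2.93 to 3.71 and lay within Rusc2, Rap1gap, Wnt9b and Xkr7.

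**Figure D5:**
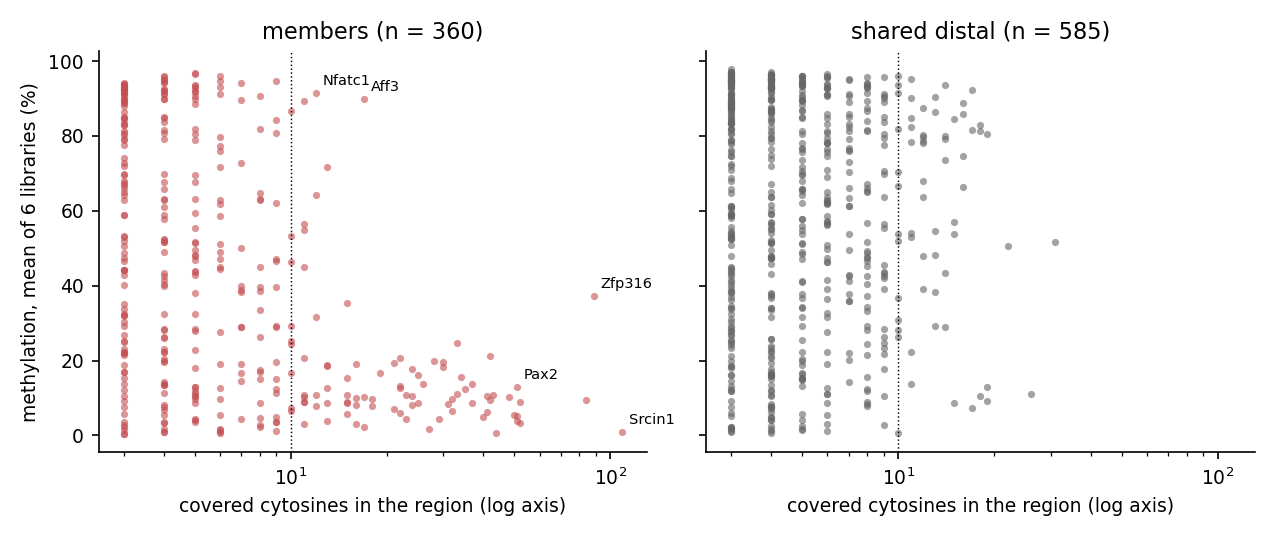
Methylation (y axis, mean of 6 libraries, %) against the number of covered cytosines in the region (x axis, log scale) for 360 members (left, red) and 585 shared regions (right, grey); each point is a region and the dotted line marks 10 cytosines. On or right of the line 70 of 91 members are under 20%, against 8 of 63 shared regions.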

How the data were processed

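H3K4me1 and H3K4me3 ChIP-seq, ERRBS and RNA-seq of B220+ cells were used as deposited; the 6 input libraries were not used. Per the submitters' processing notes, BWA, MACS2, Bismark, Bowtie2 and STAR were used with mm10, without a stated role or version. Peaks were called per library; the use of an input as control is not stated. The authors deposited for each peak a fold enrichment (a ratio), −log10 p- and q-values and a score, for each cytosine a coverage count and a percent methylation, and for each gene a TPM value. The depth of the ChIP-seq and RNA-seq libraries is unknown; ERRBS had a mean coverage of 63 to 71.6 calls per cytosine, none under 10, and PCR duplicates are not separated.

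Autosomal H3K4me1 peaks were merged with bedtools 2.31.1 (overlapping by 1 base or more), and a list was present in a region at 1 base of overlap. Nearest genes are RefSeq protein-coding genes of GRCm38.p6. Methylation per region with 3 or more cytosines was fitted by quasi-binomial regression with limma 3.58.1 (R 4.3.3) moderation, and log2(TPM + 1) of genes with a mean of 1 TPM or more by limma with a trend; fold changes are on that scale, which understates low genes. Only the groups compared entered each fit, p-values were adjusted by Benjamini-Hochberg over all features, and both scripts were tested on simulated data. Tables were joined with Python 3.11.15 and pandas 2.3.3.

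The members and gene lists were chosen with earlier results of these data known. Named regions were the 10 strongest by rank in both SHMT2 lists, the 5 widest, the 5 largest higher and 5 largest lower methylation differences without overlap of the groups, and the 3 on each side of the 2 kb limit. Named genes were the 10 nearest to most members, the 10 largest higher and 10 largest lower fold changes without overlap, and list genes nearest to a member; a few of these are not reported here. The start windows, and the members with 10 or more cytosines and their genes, were chosen after their values were seen. Alternatives covered peak thresholds, merging, distances, coverage, pseudocount, TPM minimum, other tests, a replicate block and each H3K4me1, ERRBS and RNA-seq library left out.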

Additional observations from a re-analysis of the deposited data

How the results depend on the processing

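The number of regions meeting the rule was 2111 with −log10 q of 5 or more in all lists, 33 with that limit on SHMT2 peaks alone, 866 in lists of equal length and 3552 at 5 kb or more from any vector peak, an alternative chosen after seeing the data. Leaving out 1 H3K4me1 library drops its condition from the rule, so the number could only rise. It was then 6453 to 11518, and all 5548 members were kept. Peak counts, not reads, limit these values, and the cause of the changes with peak thresholds was not tested.

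The methylation difference over members ran from 0.684 to 1.43 points with 1 library left out; members called stayed at 0, with 1 to 32 members (134 to 897 of all regions) at an unadjusted p under 0.05, and Fisher's exact test over the summed calls of each group called 35 (11%, against 10.4% of all regions). Nearest genes called ran from 0 to 174 (without vector replicate 1), with 130 to 737 at an unadjusted p under 0.05, and their median log2 fold change from -0.026 to 0.003. Without both vector replicates 2 and 3, chosen after seeing the data, 1 gene was called and the median was 0.014; the cause was not tested.

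Among 748 values of 54 named genes and 10 named regions under alternatives, 708 kept direction and side of the threshold, 23 passed it and 17 reversed. Without both vector replicates 2 and 3 the log2 fold change was -0.46 for Lpp, -0.70 for Bcl6, -0.09 for Cxcr5, 0.10 for Cd163, 0.63 for Mrc1, 0.79 for Slc4a1, -0.12 for Basp1 and -0.10 for Prep. With 1 library left out it ran from -0.08 to 0.54 for Lpp, -0.59 to 0.06 for Cacna1e, -0.22 to 0.67 for Bcl6, -0.30 to 0.04 for Tcf4, -0.45 to 0.18 for Bach2 and -0.10 to 0.11 for Foxo1.

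Same-numbered libraries did not deviate together (correlations of -0.158, -0.372 and 0.0476 in ERRBS and -0.417, -0.332 and -0.0578 in RNA-seq), and the main fits did not pair them. With 3 libraries per group this check cannot exclude a shared origin of same-numbered libraries. With the replicate block, 0 members and 0 nearest genes were called, with 7 of 317 members (270 of 6849 regions) and 213 nearest genes (8.56%, against 10.6% of all genes) at an unadjusted p under 0.05.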
